A study of Mus musculus with 8 samples.

Results

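Solute carriers are a large superfamily of membrane transport proteins, and 151 of the 19330 genes in the count table of an in vitro Treg experiment made up the set described here. The members were protein-coding genes whose symbol begins with Slc and a digit and whose mean level over the 8 libraries was at least 5 CPM (CPM being a gene's count divided by its library's total count and scaled to the same total for every library). The best known carriers of glucose, lactate and activation-linked amino acids, Slc2a1, Slc2a3, Slc16a1, Slc16a3, Slc7a1, Slc7a3, Slc7a5, Slc7a11, Slc3a2, Slc1a4, Slc1a5 and Slc38a2, were left out by name, and 11 of these were in the table. The members were thus chosen by their mean CPM, so their levels are a description. The table held 245 protein-coding Slc genes in all, of which 83 were under 5 CPM. Slc22a17 at 5.07 CPM and Slc25a14 at 5.14 CPM lay just inside the limit, and Slc35e3 at 4.47 CPM and Slc25a47 at 4.33 CPM just outside.

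The experiment asked what oxPAPC, a mixture of oxidised phospholipids made from the membrane lipid PAPC, changes in the RNA of induced regulatory T cells (Tregs). Naive CD4+ T cells from the spleen of B6 mice were driven towards Tregs for 3 days in primary culture. The Control group, 4 libraries, was polarized without oxPAPC, and the oxPAPC group, also 4 libraries, with it; every library shared the strain, the tissue and the polarization, and the labels name no transgene or other agent. The labels give neither a dose nor whether a replicate is its own mouse or culture, so p-values here measure only the spread between these libraries, which may be technical.

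Each solute carrier family is numbered by sequence and usually handles one class of substrate, such as amino acids, sugars, nucleotides, metal ions or inorganic ions. Family 25 carries metabolites across the inner mitochondrial membrane, family 35 brings nucleotide sugars and nucleotides into the Golgi and endoplasmic reticulum, and families 39 and 30 move zinc into and out of the cytosol. T cells change their uptake of nutrients and ions when they are activated and differentiate, and the carriers set which substrates can enter the cell and its organelles.

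The deposited counts summed to between 14017583 and 21619731 per library. A single RNA, Gm26917, took between 8.59% and 29.1% of the counts of a library, and CPM values below are scaled by the trimmed mean of M values (TMM). Of the labelled cell type's markers, all 6 (Cd3e, Cd4, Foxp3, Il2ra, Ctla4, Ikzf2) were measured, with a summed level of 1367 to 1816 CPM in Control and 1318 to 2125 CPM in oxPAPC, and none passed the test. Some markers of other cell types were called higher in oxPAPC and none lower, beside 6.75% higher and 6.52% lower of all tested genes. Their summed levels were far below those of the Treg markers. Summed B cell markers ran from 9.52 to 14.5 CPM in Control and from 15.2 to 18.1 CPM in oxPAPC, with 3 of 5 higher, and summed dendritic cell markers from 6.19 to 10.8 CPM and from 12.5 to 15.3 CPM, with 1 of 3 tested higher. The CD8 markers summed to 6.72 to 8.90 CPM and 10.9 to 18.7 CPM (1 of 2 higher), the natural killer markers to 0.598 to 1.81 CPM and 2.84 to 4.17 CPM (1 of 2 tested higher), and the macrophage markers to 3.40 to 4.66 CPM and 4.81 to 7.61 CPM (0 of 3 tested higher). The erythroid list summed to 4.30 to 6.95 CPM and 4.63 to 12.2 CPM, with 1 gene tested, which did not pass. The sums hold every listed marker with a count, tested or not. Cd14, Itgam, Siglech, Klrb1c, Ncr1 and the 3 neutrophil markers were looked for and were not among the 19330 genes of the count table analysed here. The part of these cells in the results below was not tested, and in bulk RNA a change in the share of cells of a type cannot be told apart from a change in RNA per cell.

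In Control libraries mitochondrial carriers led the solute carriers in level per length. Per kilobase of exon, the scale on which genes can be compared, Slc25a5, an ADP/ATP exchanger, had 181 ± 32.9 CPM per kilobase (SD, n = 4). Its relative Slc25a4 followed at 95.9, and then the scaffold protein gene Slc9a3r1, which is named after a carrier but is not one, at 70.8. Next in the order came the mitochondrial phosphate carrier Slc25a3 at 62.0 CPM per kilobase, the citrate carrier Slc25a1 at 47.3, the oxoglutarate carrier Slc25a11 at 29.8, Slc25a17 of the peroxisome at 26.4 and the glutathione carrier Slc25a39 at 23.5. The neighbours Slc25a11, Slc25a17 and Slc25a39 lay within the spread of the libraries.

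**Figure D1:**
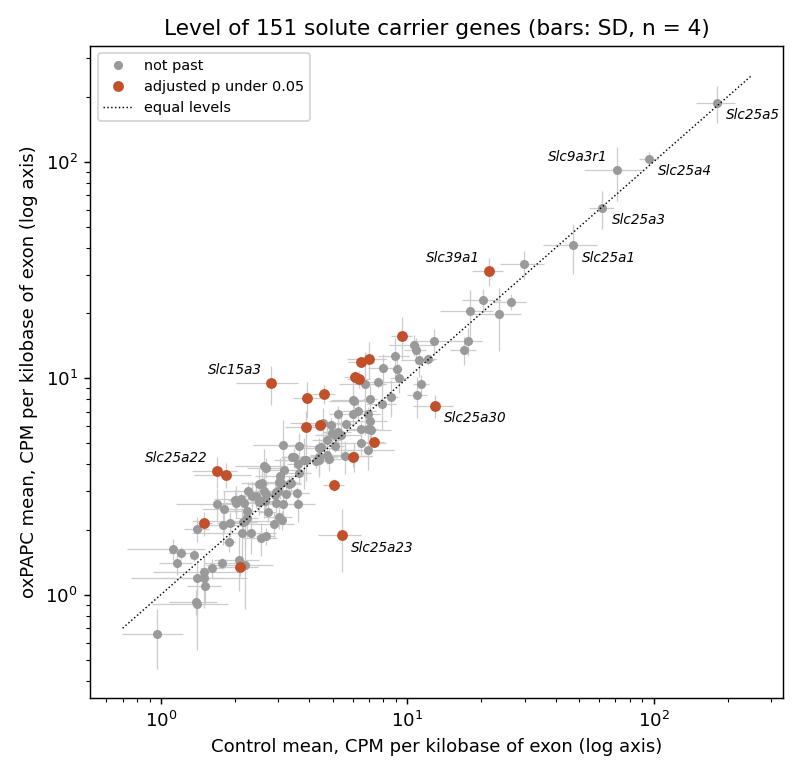
Mean level of each of the 151 solute carrier genes in the Control libraries (horizontal axis) against the oxPAPC libraries (vertical axis), both in TMM-scaled CPM per kilobase of exon on log axes, with bars of 1 SD over 4 libraries and a dotted line of equal levels; orange points are the 20 genes past an adjusted p of 0.05. Most points lie along the line, with Slc15a3, Slc25a22 and Slc25a23 farthest from it among the labelled orange points.

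After Slc9a3r1, the highest levels per length in Control outside the mitochondrial family were those of the zinc importer Slc39a1 (21.4 CPM per kilobase), Slc35b2, which supplies the Golgi with the sulfate donor PAPS (20.3), Slc38a10 of the amino acid group (17.9), the choline carrier-like Slc44a2 (17.7) and the heme carrier Slc48a1 (16.9). The lowest member was Slc6a20b, at 0.961. Each substrate group also had its own leader. These were Slc50a1 for sugars (12.2 CPM per kilobase), the vesicular nucleotide carrier Slc17a9 (11.4), the equilibrative nucleoside carrier Slc29a1 (11.2), the potassium-chloride cotransporter Slc12a7 (7.33) and Slc16a6 of the monocarboxylate family (6.52). Of these leaders only Slc39a1, Slc12a7 and Slc16a6 passed the test between the groups.

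Treatment with oxPAPC changed a minority of the solute carriers and in both directions. Every member passed the filter on low counts, and 20 of 151 (13.2%) passed an adjusted p of 0.05 in edgeR's quasi-likelihood test, 14 higher and 6 lower in oxPAPC. The share of all 16434 tested genes past this threshold was 13.3%, with 6.75% higher and 6.52% lower. Among the 10289 tested genes of at least 5 CPM, the same limit as the members', it was 15.3%, with 8.15% higher and 7.17% lower. The share of members called was therefore near the background. In 7 members 1 group's mean was under 5 CPM, 1 of them called (Slc25a33, higher), and of the other 144 members 19 were called (13.2%), 13 of them higher. The 4 libraries of one group lay wholly above the 4 of the other in 43 members (28.5%), beside 19.4% of all tested genes and 21.9% of those of at least 5 CPM. The median log2 fold change (oxPAPC over Control) was 0.10 for the members and -0.01 for all tested genes. A change of less than 0.5 on the log2 scale was seen in 119 of 151 members and 8316 of the 10289 genes of at least 5 CPM. The members called and more than 2-fold apart were 4, namely Slc15a3, Slc25a22, Slc4a11 and Slc25a23, beside 326 of those 10289 genes. Scaling by library size alone raised the median of all genes to 0.12 and gave 15 members higher and 2 lower. The lower count also fell to 3 without Control replicate 2 and to 3 without oxPAPC replicate 4.

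The share called moved with the settings of the fit. With the fit limited to genes of at least 5 CPM, the members' own limit, 19.2% of the members (21 higher and 8 lower) and 18.3% of the genes were called. The settings below set the members beside all tested genes, those under 5 CPM included. DESeq2 called 22.5% of the members (25 higher and 9 lower) and 16.6% of all tested genes, and an offset for GC content and length, chosen after seeing the data, 29.1% (31 higher and 13 lower) and 3282 of 16410 genes. Without any one library the share ran from 9.27% to 15.2% of the members and from 8.17% to 12.7% of all tested genes.

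**Figure D2:**
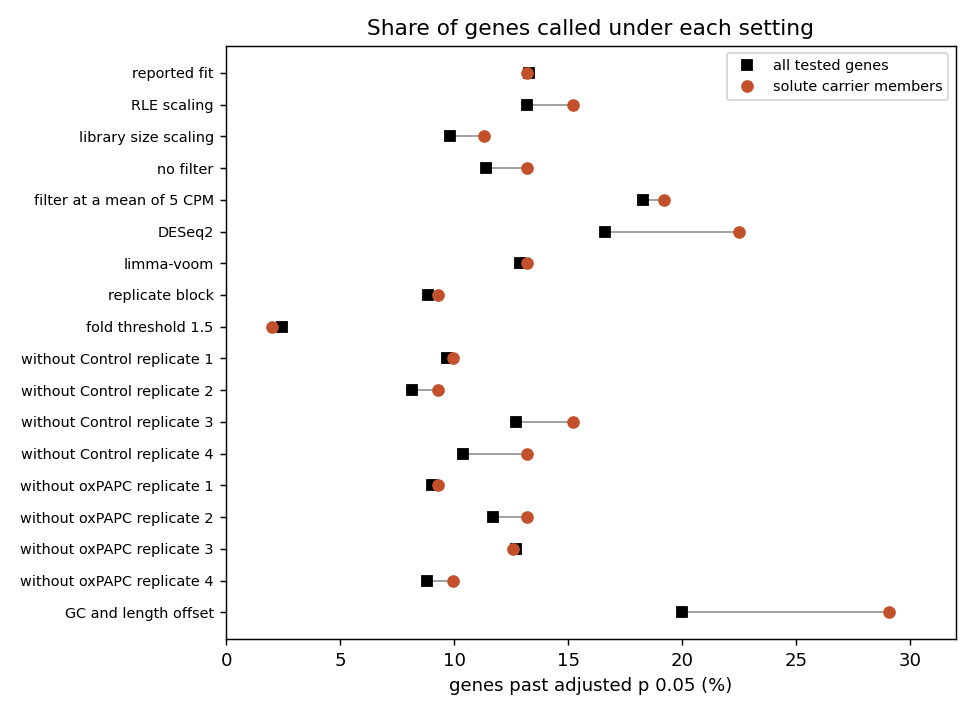
Share of genes past an adjusted p of 0.05, in percent, under each setting of the fit (vertical axis), for all tested genes (black squares) and for the 151 solute carrier members (orange points), joined by a line. In the reported fit both stand at about the same place, 13.3% and 13.2%, and the widest gaps are with DESeq2 and with the GC and length offset. All tested genes include those under 5 CPM, except in the fit filtered at a mean of 5 CPM, with 18.3% of genes and 19.2% of members.

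The summed level of the 151 members was 4969, 5324, 4880 and 5392 CPM in the Control libraries and 5269, 5006, 6117 and 5390 CPM in the oxPAPC libraries. The groups overlapped, and oxPAPC replicate 3 stood highest. This library was the highest of its group in 78 of 151 members and in 9 of the 14 members that rose. Without it, 12 members were higher and 7 lower.

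**Figure D3:**
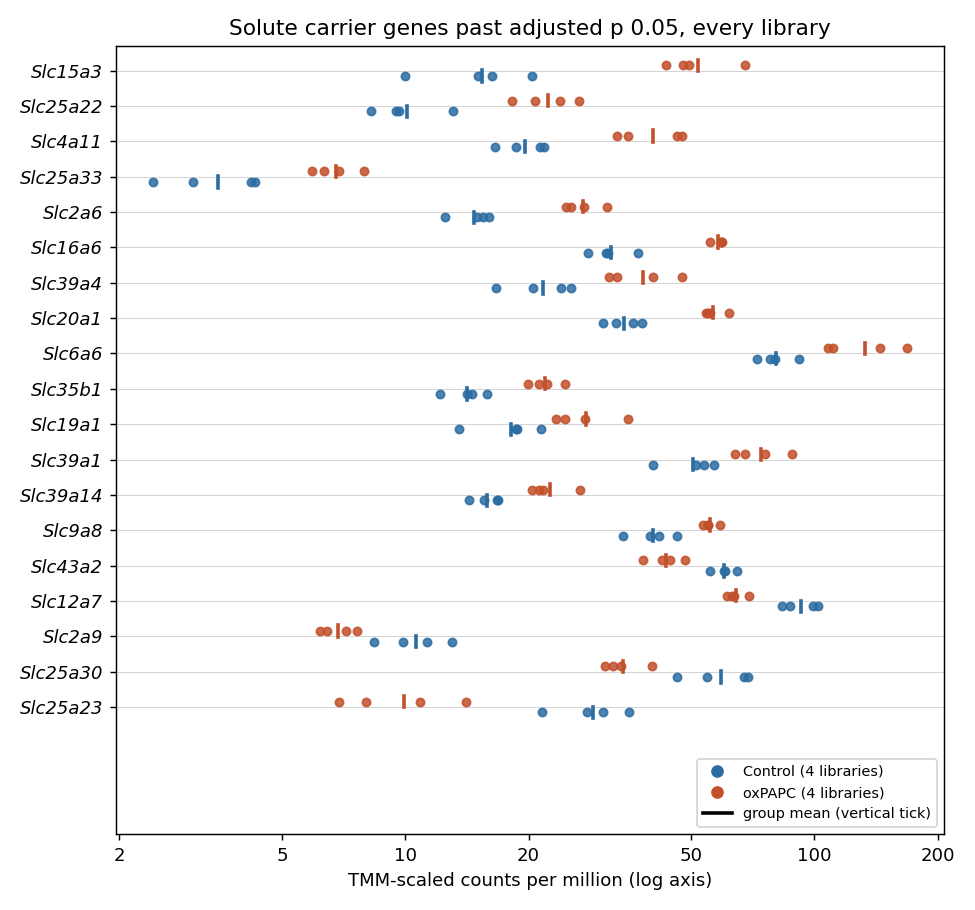
Level of 19 of the 20 solute carrier genes past an adjusted p of 0.05 in each of the 8 libraries, in TMM-scaled CPM on a log axis, ordered by log2 fold change; blue points are Control libraries, orange points oxPAPC libraries, and vertical ticks the group means. In each of the 19 genes the 4 libraries of one group lie wholly to one side of the other 4.

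Among the 15 amino acid and peptide carriers, 2 rose and 1 fell, and Slc15a3 changed most of all members. Slc15a3 (chr19:10839727-10859362, plus strand, GRCm38) encodes a proton-coupled carrier that exports histidine and short peptides from endosomes and lysosomes. Its level was 15.03, 16.3, 9.96 and 20.4 CPM in the Control libraries and 49.4, 43.4, 67.5 and 47.7 CPM in the oxPAPC libraries. The lowest oxPAPC library thus stood above the highest Control library by more than the whole Control range. The log2 fold change was 1.76 ± 0.21 (SE), or 3.38-fold, with an adjusted p of 0.000135 (edgeR). The gene model shares exon bases with Tmem132a on the opposite strand, 1541 of 5491 bases. Tmem132a was at 2.73 CPM in Control and 3.93 CPM in oxPAPC, and as no source used here says whether counting was by strand, reads from the shared bases cannot be told apart. The closest relative Slc15a4, a carrier of the same substrates, was at 25.96 ± 1.39 CPM in Control and 32.2 ± 2.71 CPM in oxPAPC (SD, n = 4), with a log2 fold change of 0.31 and an adjusted p of 0.117 (edgeR).

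The taurine carrier Slc6a6 also rose. It was at 77.7, 72.4, 80.1 and 91.6 CPM in Control and at 111, 108, 168 and 144 CPM in oxPAPC, a log2 fold change of 0.72 ± 0.17 with an adjusted p of 0.0112 (edgeR). The groups did not overlap, and the spread was wider in oxPAPC. Slc43a2, a facilitative carrier of large neutral amino acids, fell from 60.2 ± 3.74 to 43.2 ± 4.18 CPM (log2 fold change -0.48 ± 0.13, edgeR adjusted p = 0.0235). That call was lost without any one of 5 libraries, Control replicates 2 and 4 and oxPAPC replicates 1, 2 and 4 (adjusted p between 0.0556 and 0.087), and with scaling by library size alone (0.289). Its family member Slc43a3, which carries nucleobases, had a log2 fold change of 0.47 and an adjusted p of 0.0536 (edgeR), with every oxPAPC library above every Control library. The system A glutamine carrier Slc38a1 was at 160 ± 12.8 and 174 ± 26.9 CPM, with an adjusted p of 0.675. Slc7a6, which exchanges cationic amino acids for glutamine, had a log2 fold change of 0.28 and an adjusted p of 0.18, again without overlap between the groups. Slc38a9, the lysosomal arginine sensor of the mTORC1 pathway, was at 25.3 ± 3.93 and 18.4 ± 3.13 CPM (edgeR adjusted p = 0.0745).

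Of 10 sugar and sugar phosphate carriers, 1 rose and 1 fell, both of the glucose transporter family Slc2. Slc2a6, an intracellular member of that family, was at 14.96, 15.997, 12.5 and 15.5 CPM in Control and 27.3, 25.5, 31.1 and 24.7 CPM in oxPAPC (log2 fold change 0.88 ± 0.14, edgeR adjusted p = 0.00105). The groups lay far apart, with a Control maximum of 15.997 CPM. Slc2a9, a urate carrier, fell from 10.6 ± 1.97 to 6.85 ± 0.651 CPM (log2 fold change -0.63 ± 0.18, edgeR adjusted p = 0.0341) without overlap between the groups. That call was lost without any one of 6 libraries, Control replicates 1, 2 and 3 and oxPAPC replicates 1, 3 and 4 (adjusted p between 0.0596 and 0.117), and with scaling by library size alone (0.163). The remaining member, Slc2a8, was at 19.2 ± 3.46 and 25.3 ± 5.94 CPM (edgeR adjusted p = 0.182). Outside family 2, the myo-inositol carrier Slc5a3 was at 75.4 ± 9.41 and 74.9 ± 5.21 CPM and the ER glucose 6-phosphate carrier Slc37a4 at 20.2 ± 3.49 and 18.2 ± 2.22 CPM.

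Slc16a6 was the 1 of 4 monocarboxylate family members that rose. Its level was 37.1, 27.99, 30.98 and 31.3 CPM in the Control libraries and 59.6, 55.4, 59.04 and 58.98 CPM in the oxPAPC libraries. The oxPAPC libraries were close to one another and all above Control, with a log2 fold change of 0.87 ± 0.13 and an adjusted p of 0.000659 (edgeR). Slc16a6 (chr11:109450855-109473598, minus strand) shares 1052 of 4883 exon bases with Amz2 on the opposite strand. Amz2 fell, with means of 35.6 CPM in Control and 21.3 CPM in oxPAPC and an adjusted p of 0.00276 (edgeR). Slc16a10, a carrier of aromatic amino acids in the same family, was at 16.5 ± 1.8 and 16.7 ± 3.13 CPM.

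The mitochondrial carrier family was the largest group, with 35 members, of which 2 rose, 2 fell and 31 did not pass. Its median log2 fold change was 0.01, and its summed level was 1822 ± 58.4 CPM in Control and 1770 ± 187 CPM in oxPAPC (SD, n = 4). The share called was 11.4%, beside 15.3% of tested genes of at least 5 CPM. The 4 that passed were Slc25a22, Slc25a33, Slc25a30 and Slc25a23. Their promoters are shown because these genes of one family, all on the minus strand, moved in opposite directions. Each line holds the 250 bases before a transcription start of RefSeq (GRCm38.p6), 5′ to 3′ on the gene's strand, with capitals where a searched motif matched. The windows are chr17:57059864-57060113 for Slc25a23, chr14:75787038-75787287 for Slc25a30, chr7:141437875-141438124 for Slc25a22, chr7:141435376-141435625 for an inner start of Slc25a22 and chr4:149774268-149774517 for Slc25a33, all on the minus strand. Slc25a23 and Slc25a30 fell, and Slc25a22 and Slc25a33 rose.
Slc25a23: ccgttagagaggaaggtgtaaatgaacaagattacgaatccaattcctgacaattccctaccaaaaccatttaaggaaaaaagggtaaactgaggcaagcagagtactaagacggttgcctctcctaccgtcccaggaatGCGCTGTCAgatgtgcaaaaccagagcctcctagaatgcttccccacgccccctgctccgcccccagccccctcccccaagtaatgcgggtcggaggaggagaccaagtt
Slc25a30: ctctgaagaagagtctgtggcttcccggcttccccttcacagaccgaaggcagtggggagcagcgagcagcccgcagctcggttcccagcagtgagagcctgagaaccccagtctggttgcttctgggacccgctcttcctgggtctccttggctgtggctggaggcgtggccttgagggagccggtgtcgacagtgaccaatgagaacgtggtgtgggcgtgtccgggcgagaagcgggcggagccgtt
Slc25a22: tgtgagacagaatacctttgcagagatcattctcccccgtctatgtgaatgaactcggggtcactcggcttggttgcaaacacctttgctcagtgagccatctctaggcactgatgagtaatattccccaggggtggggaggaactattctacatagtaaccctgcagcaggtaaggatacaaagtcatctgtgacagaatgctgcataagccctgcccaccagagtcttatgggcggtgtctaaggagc
Slc25a22 inner start: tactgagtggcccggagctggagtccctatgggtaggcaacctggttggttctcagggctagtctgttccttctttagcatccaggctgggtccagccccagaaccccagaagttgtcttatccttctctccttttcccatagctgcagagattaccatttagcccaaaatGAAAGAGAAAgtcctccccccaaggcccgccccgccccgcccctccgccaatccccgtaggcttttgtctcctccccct
Slc25a33: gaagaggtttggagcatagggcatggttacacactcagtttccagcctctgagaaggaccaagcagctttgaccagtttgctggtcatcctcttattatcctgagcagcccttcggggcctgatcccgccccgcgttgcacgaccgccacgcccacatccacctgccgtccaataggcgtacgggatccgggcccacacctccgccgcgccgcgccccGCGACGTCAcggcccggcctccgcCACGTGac
The capitals in Slc25a23 are a match to the antioxidant response core TGACNNNGC on the other strand that begins 110 bases before the start. In the inner Slc25a22 line they are an interferon-stimulated response element (ISRE) core, read on the other strand, that begins 79 bases before the start. In Slc25a33 they are an E-box CACGTG that begins 8 bases and an antioxidant response core that begins 32 bases before the start. Slc25a30 and the outer Slc25a22 start held none of the searched motifs. A further inner Slc25a22 start (chr7:141434595-141434844), not shown, held none either. The window of a second Slc25a23 start (chr17:57059843-57060092), not shown, held the same antioxidant response core, beginning 131 bases before that start. A match is a description of the letters, not a site.

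Over all members, 117 of 151 had a promoter in the RefSeq table, of 27025 genes in the table, and both strands were searched. The E-box was present in 17.1% of these members (20 genes) and 6.86% of all genes in the table, and the antioxidant response core in 17.9% (21 genes) and 11.5%. The metal response core TGCACNC or TGCGCNC was found in 34.2% (40 genes) and 23.8%. The amino acid response core TGATGNAA of ATF4 targets was found in 3.42% (4 genes) and 3.91%, and the ISRE core in 2.56% (3 genes) and 3.46%. Of the 14 members that rose, 8 had a promoter there. Of these 8, 4 held the antioxidant core (Slc19a1, Slc20a1, Slc25a33 and Slc39a1), 2 the E-box, 2 the metal response core and 1 the ISRE core. Slc25a33, counted for the antioxidant core and the E-box, met the limit of 5 CPM only through the oxPAPC libraries. The calls of Slc19a1 and Slc39a1 were each lost under 7 of 17 other settings. Of the 5 with a promoter that fell, Slc12a7 held an E-box and Slc25a23 the antioxidant core. These shares are descriptions without a test, and the promoters differ in base composition.

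Slc25a23 fell most of all members. It encodes a calcium-regulated carrier that exchanges ATP-Mg for phosphate and so sets the adenine nucleotide content of the mitochondrial matrix. Its level was 21.5, 30.4, 27.8 and 35.1 CPM in Control and 6.87, 7.9997, 14.1 and 10.9 CPM in oxPAPC. Every oxPAPC library was below every Control library, with a log2 fold change of -1.52 ± 0.22, or 2.86-fold lower, and an adjusted p of 0.000547 (edgeR). The other carriers of this substrate did not pass, Slc25a24 with a log2 fold change of -0.30 (edgeR adjusted p = 0.311) and Slc25a25 with -0.09 (0.707).

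Slc25a22, a mitochondrial glutamate carrier, was at 8.25, 9.51, 9.64 and 13.1 CPM in Control and 20.7, 18.2, 26.6 and 23.8 CPM in oxPAPC. The log2 fold change was 1.14 ± 0.18 with an adjusted p of 0.000879 (edgeR), and the groups did not overlap. The second glutamate carrier, Slc25a18, was at 5.97 ± 1.28 and 4.9995 ± 0.986 CPM (log2 fold change -0.26, edgeR adjusted p = 0.5). The aspartate-glutamate exchangers of the malate-aspartate shuttle had log2 fold changes of opposite sign, neither past the test. Slc25a13 (citrin) had 0.52 with an adjusted p of 0.0524 and Slc25a12 (aralar) -0.40 with an adjusted p of 0.117 (edgeR).

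Slc25a33, which brings pyrimidine nucleotides into mitochondria, was at 4.19, 3.02, 2.42 and 4.28 CPM in Control and 7.91, 6.88, 5.91 and 6.34 CPM in oxPAPC (log2 fold change 0.95 ± 0.23, edgeR adjusted p = 0.0137). The groups did not overlap. Slc25a33 met the limit of 5 CPM only through the oxPAPC libraries (mean over all 8 libraries 5.18 CPM), so its place among the members depends on its difference. It shares 281 of 1887 exon bases with Gm13068 on the opposite strand. Slc25a36, the other pyrimidine nucleotide carrier, was at 58.4 ± 10.4 and 41.8 ± 6.26 CPM, with a log2 fold change of -0.49 and an adjusted p of 0.061 (edgeR). The difference between the members of these pairs was not tested. Slc25a30, a carrier first described in kidney, fell from 54.6, 68.9, 46.1 and 67.4 CPM in Control to 32.1, 33.6, 40.02 and 30.7 CPM in oxPAPC (log2 fold change -0.79 ± 0.16, edgeR adjusted p = 0.00443).

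The abundant carriers of oxidative phosphorylation and citrate export did not pass. Slc25a4 was at 226 ± 20.6 and 243 ± 17.04 CPM, Slc25a5 at 298 ± 54.2 and 308 ± 58.8 CPM, and Slc25a3 at 344 ± 39.7 and 340 ± 67.9 CPM (SD, n = 4). Slc25a1, which exports citrate for lipid synthesis, was at 102 ± 25.4 CPM in Control and 89.0 ± 23.2 CPM in oxPAPC (edgeR adjusted p = 0.585). The mitochondrial iron importers Slc25a37 and Slc25a28 were at 21.8 ± 2.75 and 21.997 ± 2.39 CPM and at 25.98 ± 1.28 and 21.9 ± 2.59 CPM. The carnitine carrier Slc25a20, needed for fatty acid oxidation, was at 29.3 ± 1.71 and 33.2 ± 1.78 CPM (edgeR adjusted p = 0.365).

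**Figure D4:**
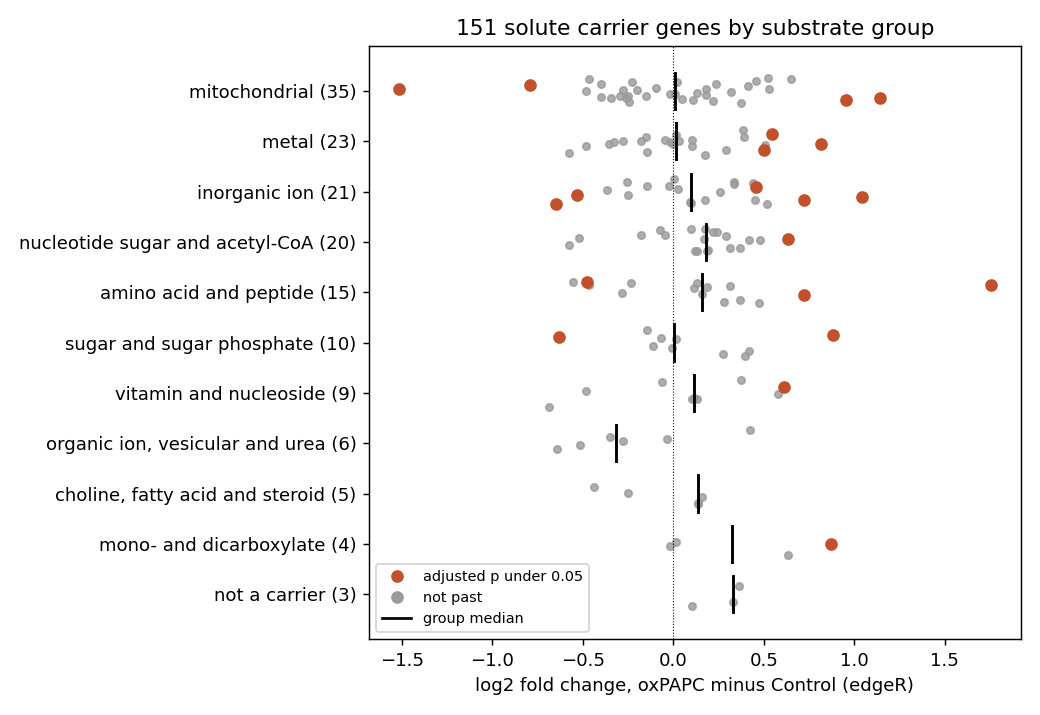
Log2 fold change (oxPAPC over Control) of each of the 151 members by substrate group, 1 point a gene, with genes past an adjusted p of 0.05 in orange and the group median marked. The mitochondrial group runs from -1.52 to 1.14 and the amino acid and peptide group from -0.56 to 1.76, while the group medians lie between -0.32 and 0.33.

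Among 23 metal carriers, 3 rose and none fell, and the 3 were all zinc importers of family 39 (ZIP). Family 39 had 10 members, of which 6 showed no overlap between the groups (5 higher and Slc39a13 lower in oxPAPC). The groups did not overlap in 19.4% of all tested genes, and the 3 of 23 metal carriers called stood beside 13.3% of all tested genes. None of the 6 members of family 30, which removes zinc from the cytosol, passed the test. Slc39a4 was at 20.5, 25.4, 16.7 and 24.1 CPM in Control and 40.4, 31.5, 47.5 and 32.96 CPM in oxPAPC (log2 fold change 0.82 ± 0.17, edgeR adjusted p = 0.00644). Slc39a1 was at 50.6 ± 7.19 and 73.9 ± 10.8 CPM (0.55 ± 0.15, 0.0285). Slc39a14, which also takes up iron and manganese, was at 15.9 ± 1.17 and 22.5 ± 2.85 CPM (0.50 ± 0.14, 0.0276). The calls of Slc39a1 and Slc39a14 were lost when single libraries were left out, Control replicate 1, Control replicate 4, oxPAPC replicate 1 or oxPAPC replicate 3 for both, with adjusted p-values between 0.0509 and 0.073. In addition, Slc39a1 was lost without Control replicate 3 (adjusted p = 0.0619), and Slc39a14 without Control replicate 2 (0.0872) or oxPAPC replicate 4 (0.0597) and with scaling by library size alone (0.0553).

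Other zinc importers of T cells did not pass. Slc39a6 was at 36.3 ± 5.23 and 51.6 ± 10.8 CPM (log2 fold change 0.51, edgeR adjusted p = 0.0559) and Slc39a8 at 15.5 ± 1.54 and 20.2 ± 2.37 CPM (0.38, 0.0929), both without overlap between the groups. Slc39a10 was at 34.2 ± 9.62 and 26.7 ± 4.7 CPM, with an adjusted p of 0.25. The iron carrier Slc11a2 was at 41.2 ± 4.68 and 37.1 ± 2.83 CPM and the copper importer Slc31a1 at 18.8 ± 3.37 and 18.5 ± 3.02 CPM.

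The 21 carriers of inorganic ions held 3 members that rose and 2 that fell (23.8%, beside 15.3% of tested genes of at least 5 CPM). Slc4a11 (chr2:130684113-130697519, minus strand), a member of the bicarbonate carrier family, was at 18.7, 16.6, 21.8 and 21.4 CPM in Control and 35.003, 32.9, 46.2 and 47.5 CPM in oxPAPC. The log2 fold change was 1.04 ± 0.16, or 2.06-fold, with an adjusted p of 0.000787 (edgeR). The sodium-phosphate cotransporter Slc20a1, the main route of phosphate into most cells, was at 32.7, 30.5, 37.8 and 35.9 CPM in Control and 54.3, 55.0, 55.5 and 61.7 CPM in oxPAPC. All 4 oxPAPC libraries were above Control, with a log2 fold change of 0.72 ± 0.13 and an adjusted p of 0.00205 (edgeR). Its paralog Slc20a2 was at 12.4 ± 0.759 and 17.01 ± 1.98 CPM, with a log2 fold change of 0.45 and an adjusted p of 0.0538 (edgeR). Slc9a8, a sodium-proton exchanger of the Golgi and endosomes, rose from 40.4 ± 4.999 to 55.5 ± 2.302 CPM (0.46 ± 0.13, edgeR adjusted p = 0.033). That call was lost without any one of 6 libraries, Control replicates 1, 2 and 4 and oxPAPC replicates 1, 2 and 4, with adjusted p-values between 0.0697 and 0.114, and with scaling by library size alone (0.0734).

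Slc12a7 (KCC4), a potassium-chloride cotransporter, which exports potassium and chloride and takes part in volume control, fell. It was at 83.4, 102, 87.2 and 98.9 CPM in Control and 63.7, 62.7, 69.1 and 61.2 CPM in oxPAPC (log2 fold change -0.53 ± 0.13, edgeR adjusted p = 0.015). The groups did not overlap. Its relative Slc12a4 (KCC1) had a log2 fold change of 0.44 with an adjusted p of 0.154, and Slc12a2 (NKCC1), which imports the same ions with sodium, 0.34 with an adjusted p of 0.182 (edgeR). With scaling by library size alone the call of Slc12a7 did not hold (adjusted p = 0.187), and it was also lost without Control replicate 2 (0.0544) or oxPAPC replicate 4 (0.0586).

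Of 20 carriers of nucleotide sugars and acetyl-CoA, 1 rose (5.0%, beside 15.3% of tested genes of at least 5 CPM called). Slc35b1, which brings ATP into the endoplasmic reticulum in exchange for ADP, was at 12.2, 15.8, 14.1 and 14.6 CPM in Control and 21.2, 19.97, 24.6 and 22.2 CPM in oxPAPC (log2 fold change 0.64 ± 0.14, edgeR adjusted p = 0.00862). Its groups did not overlap. The carriers of sugar donors for glycosylation did not pass, among them Slc35a1 for CMP-sialic acid (13.9 ± 2.88 and 17.98 ± 1.27 CPM), Slc35a2 for UDP-galactose (8.42 ± 1.65 and 9.96 ± 1.91 CPM) and Slc35c1 for GDP-fucose (25.9 ± 3.55 and 25.02 ± 6.19 CPM).

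Among 9 vitamin and nucleoside carriers, only the reduced folate carrier Slc19a1 was called (11.1%, beside 15.3% of tested genes of at least 5 CPM), and it rose. It was at 18.6, 18.8, 13.5 and 21.5 CPM in Control and 27.5, 23.4, 35.04 and 24.5 CPM in oxPAPC (log2 fold change 0.61 ± 0.17, edgeR adjusted p = 0.032). The highest Control library, 21.5 CPM, stood close to the lowest oxPAPC library, 23.4 CPM. The call was lost without any one of 5 libraries, Control replicates 1, 2 and 3 and oxPAPC replicates 1 and 3, with adjusted p-values between 0.0626 and 0.0803. The thiamine carrier Slc19a2 was at 17.1 ± 0.963 and 18.4 ± 1.37 CPM (0.668), the riboflavin carrier Slc52a2 at 14.4 ± 3.41 and 21.5 ± 4.27 CPM (0.0591) and the ascorbate carrier Slc23a2 at 41.7 ± 3.36 and 54.1 ± 5.05 CPM (0.0715), each with its edgeR adjusted p. The adenosine and nucleoside carrier Slc29a1 was at 44.8 ± 6.92 and 48.5 ± 8.05 CPM.

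None of the 5 choline, fatty acid and steroid carriers, the 6 organic ion and vesicular carriers or the 3 genes named after a carrier passed the test. At an unadjusted p under 0.05 (edgeR) these groups held 1, 2 and 1 genes. An unadjusted p that low was found in 4514 of all 16434 tested genes and 3224 of the 10289 of at least 5 CPM. Slc44a2 was at 154 ± 21.3 and 129 ± 19.5 CPM and the fatty acid carrier Slc27a4 at 16.8 ± 4.07 and 18.4 ± 4.88 CPM. The lysosomal sialic acid exporter Slc17a5 was at 9.67 ± 0.844 and 6.74 ± 0.599 CPM, without overlap between the groups (log2 fold change -0.52, edgeR adjusted p = 0.0541). The scaffold gene Slc9a3r1 was at 136 ± 36.2 and 176 ± 48.97 CPM (edgeR adjusted p = 0.31).

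Genes that work with the carriers were read from a list of chaperones, buffering proteins, channels and enzymes that use the cargo. Of these, 40 had counts here and 38 were tested, 4 higher and 1 lower. The share called, 13.2% of those tested, was near the 13.3% of all tested genes. Tfrc, the transferrin receptor that takes up iron, rose from 68.1 to 191 CPM (log2 fold change 1.49, edgeR adjusted p = 0.000254). The folate enzyme genes Shmt1 and Mthfd1 rose by 1.09 and 0.92 on the log2 scale (edgeR adjusted p = 0.00147 and 0.00728). Bsg, the chaperone of monocarboxylate carriers, rose from 88.7 to 147 CPM (0.73, 0.00519), while Emb, the other such chaperone, had -0.44 and an adjusted p of 0.127. Acsl3, which activates fatty acids, fell from 38.5 to 21.3 CPM (-0.86, 0.00152). The zinc sensor Mtf1 had 0.33 and an adjusted p of 0.107.

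Other transport proteins of at least 5 CPM were called at shares of 22.7% for 22 ATP-binding cassette genes (3 higher, 2 lower), 7.14% for 14 proton pump subunits (1 higher) and 28.6% for 21 P-type pumps (3 higher, 3 lower). The 11 carriers left out by name held 2 that were higher and 1 lower (27.3%). The share over all tested genes of at least 5 CPM was 15.3%. Of the 51 tested Slc genes under 5 CPM, 2 were higher and 1 lower (5.88%, beside 13.3% of all tested genes). With other limits on the mean, 21 of 173 Slc genes of at least 2 CPM (12.1%) and 18 of 117 of at least 10 CPM (15.4%) were past the threshold.

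The authors' deposited table, made with DESeq2, gave an adjusted p for 148 members, of which 29 were under 0.05, 23 higher and 6 lower in oxPAPC, or 19.6% of the 148 beside 14.4% of all 18316 genes with an adjusted p there. All 20 members past the threshold in edgeR were among them in the same direction. The 18316 genes include those under 5 CPM, and the members do not.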

How the data were processed

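RNA of in vitro-derived mouse Tregs (4 Control and 4 oxPAPC libraries) was selected for poly(A) tails, per the labels' protocols. GRCm38.p6 as the build, DESeq2 1.30.1, featureCounts 2.0.2 and STAR 2.7.8a are listed per the submitters' processing notes. The strand setting was not given in the sources used here. The authors deposited whole-number counts per gene and library, and, from DESeq2, log2 fold changes with standard errors, fold values as a linear ratio, mean normalized counts (a signal scaled by size factors), the test's statistic (a score), and p-values and adjusted p-values. Rows had at least 5 counts in their second-highest library.

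From the counts, edgeR 4.0.16 (R 4.3.3) was run with TMM scaling, filterByExpr and the quasi-likelihood test without covariates over all 16434 genes kept, with Benjamini-Hochberg adjustment and a threshold of 0.05. The common biological coefficient of variation was 0.207, and total counts of 14017583 to 21619731 set the counting precision. SE is the log2 fold change over the square root of the F statistic. Exon lengths and coordinates are from GENCODE M21, which matched 99.1% of gene identifiers and all 151 members. The scripts were tested on simulated data. Alternatives were DESeq2 1.42.0, limma-voom 3.58.1, other scalings and filters, a replicate block, a fold threshold of 1.5, leaving out each library and, chosen after seeing the data, an offset for GC content and length.

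The members, substrate groups, marker and partner lists were chosen with earlier results of these data known. Named genes were up to 10 highest and up to 10 lowest past the threshold (6 were lower), the most abundant and the smallest adjusted p of each substrate group, the genes at the limit of 5 CPM, and a preset list of carriers. Slc39a14, Slc9a8 and the other relatives set beside a changed gene, or given as examples of a group, fall outside that rule and were picked with their values in view (chosen after seeing the data). The values of 1 member that passed the threshold are not reported here; it stays in the counts.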

Additional observations from a re-analysis of the deposited data

Results flagged for a closer look

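In 96 groups of 4 libraries (48 named solute carriers in 2 groups), 5 held a library far from the other 3, and chance flags about 1 in 20 groups. In Slc12a2, Control replicate 4 was at 35.8 CPM and the others between 24.9 and 26.6 CPM. In Slc16a6, oxPAPC replicate 2 was at 55.4 CPM, below the others at 58.98 to 59.6 CPM and still above every Control library. In Slc20a1, oxPAPC replicate 4 was at 61.7 CPM and the others between 54.3 and 55.5 CPM. In oxPAPC replicate 3, the citrate carrier Slc25a1 was at 123 CPM, with the other libraries at 72.9 to 79.9 CPM, and the scaffold gene Slc9a3r1 at 249 CPM, with the others at 146 to 158 CPM.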

How the results depend on the processing

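Of the 20 solute carriers past the threshold, none turned direction under any of the 17 other settings. Slc15a3, Slc25a22 and Slc25a23 kept their call in all of them, and 12 of the 20, these included, kept it under all but the fold threshold.

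The counts of members higher and lower were 14 and 6. They were 25 higher with DESeq2, 31 and 13 with the offset for GC content and length, 2 and 1 against a fold threshold of 1.5, and 2 lower with scaling by library size. Leaving out 1 library gave 10 to 15 members higher and 3 to 8 lower. Over all genes, with 1110 higher and 1072 lower, the fold threshold gave 220 and 182, the offset 1735 higher, scaling by library size 458 lower, and leaving out 1 library 710 to 1057 higher and 680 to 1144 lower. The lowest were without Control replicate 2 (710 and 680) and, for lower, without oxPAPC replicate 4 (694). The cause was not tested.

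Pairing by replicate number was not assumed in the reported fit. The correlations of same-numbered libraries' deviations from their group means were 0.321, -0.0528, -0.368 and -0.0354. Those of differently numbered libraries were not set beside them, so these values cannot decide whether the libraries were paired. A fit with the replicate number as a block called 10 members higher and 4 lower, and 745 genes higher and 708 lower over all. It lost Slc19a1, Slc2a9, Slc39a1, Slc39a14, Slc43a2 and Slc9a8.

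Signs turned only in named genes that were not past the threshold. Slc25a3 (-0.02 in the reported fit) was at 0.00174 with relative log scaling, 0.129 with library size, 0.0018 with DESeq2 and -0.162 to 0.066 over the fits without 1 library. Slc25a5 was at -0.00962 and Slc50a1 at -0.0454 with the offset. Over the fits without 1 library, Slc25a5 ran from -0.0793 to 0.16, Slc50a1 from -0.0263 to 0.0616, Slc27a4 from -0.0638 to 0.264, Slc29a1 from -0.00539 to 0.187 and Slc38a10 from -0.000879 to 0.31.

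Of the limits, 47 of the 151 members share exon bases with another gene, and reads of such bases cannot be told apart here. Besides Slc15a3 and Slc16a6, the called members with such bases include Slc20a1, Slc25a23, Slc25a33, Slc43a2 and Slc6a6.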
